A study of Homo sapiens with 12 samples.

Results

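The genes described are 10 members of the Notch pathway, listed by symbol, with no threshold on their values. They are the receptors NOTCH1, NOTCH2 and NOTCH3, the ligands JAG1, JAG2 and DLL1, the nuclear partners RBPJ and MAML1, and the target genes HES1 and HEY1. All 10 were found among the 38516 genes of the deposited expression table, and 9 of them were among the 17823 genes tested, HEY1 being too low. RNA was sequenced from KYSE150 and KYSE510, human cell lines derived from squamous carcinoma of the esophagus (ESCC). Each line gave 3 libraries labelled control and 3 labelled as silenced for HCP5, a long non-coding RNA gene. All 12 libraries came from cells grown in the same medium with 10% fetal bovine serum. The library titles begin with sh in all 4 groups, and the labels do not spell this out. Each group is a cell line without other cell types, and the labels do not say that libraries came from separate cultures, so p-values measure the spread between these libraries, which may be technical.

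Notch proteins are receptors that are activated by ligands on a neighbouring cell. Ligand binding exposes the receptor to an ADAM protease and then to gamma-secretase, and the released intracellular domain enters the nucleus, binds the DNA-binding protein RBPJ together with a Mastermind coactivator such as MAML1, and switches on HES and HEY genes, which encode repressors. In stratified squamous epithelium the pathway is known for promoting differentiation of cells as they leave the basal layer, and NOTCH1 is often mutated in squamous carcinoma.

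Promoter sequences of 8 of the 10 genes were matched by symbol in RefSeq (GRCh38.p14), and the 250 bases before each transcript start were searched on both strands. TGGGAA, the core word bound by RBPJ, was present in the promoters of HES1 and RBPJ only, 2 of the 8 genes, and in 20.8% of all 35116 promoters searched. The longer word GTGGGAA, which contains TGGGAA, was present in the same 2 genes and in 5.43% of all promoters. CACNAG, the N-box bound by HES proteins, was present in NOTCH3, HES1, MAML1 and RBPJ and in 32.0% of all promoters. Counted by window, as the share of all promoters is, TGGGAA and GTGGGAA were each in 2 of the 12 windows of these genes (16.7%) and CACNAG in 4 of 12 (33.3%), since RBPJ alone has 5 windows. These windows are printed 5′ to 3′: HES1, the target gene with the highest level, and 1 of 5 RBPJ windows carry TGGGAA or its reverse complement in capitals, and NOTCH3, the gene that differed most between lines, carries its CACNAG match in capitals.
HES1 (chr3:194135898-194136147, plus strand): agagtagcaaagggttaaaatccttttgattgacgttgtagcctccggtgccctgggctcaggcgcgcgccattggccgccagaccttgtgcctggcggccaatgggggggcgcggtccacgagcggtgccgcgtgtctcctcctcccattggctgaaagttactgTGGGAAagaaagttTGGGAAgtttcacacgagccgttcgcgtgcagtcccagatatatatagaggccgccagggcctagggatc
RBPJ (chr4:26319496-26319745, plus strand): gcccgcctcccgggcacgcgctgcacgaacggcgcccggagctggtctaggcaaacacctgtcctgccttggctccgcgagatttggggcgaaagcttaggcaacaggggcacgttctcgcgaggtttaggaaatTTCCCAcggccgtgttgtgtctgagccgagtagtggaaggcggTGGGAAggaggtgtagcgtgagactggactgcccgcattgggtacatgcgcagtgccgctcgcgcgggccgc
NOTCH3 (chr19:15200996-15201245, minus strand): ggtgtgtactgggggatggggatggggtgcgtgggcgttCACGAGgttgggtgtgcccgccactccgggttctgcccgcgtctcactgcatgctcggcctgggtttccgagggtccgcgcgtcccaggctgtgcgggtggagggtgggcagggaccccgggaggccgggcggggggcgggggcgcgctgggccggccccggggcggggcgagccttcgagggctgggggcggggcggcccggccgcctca
In HES1 the TGGGAA words begin 84 and 70 bases before the start and point the same way. In RBPJ they begin 115 and 72 bases before the start and point in opposite directions. A match describes the letters only, and binding was not measured.

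The libraries held 20035025 to 28202422 reads assigned to genes. In KYSE150 every silenced library was deeper than every control, and control replicate 3 lay among the silenced libraries on the second principal component. The level of HCP5, the targeted gene, was 0.770 ± 0.0220 RPKM (reads scaled to exon length and library depth) in KYSE150 controls and 0.437 ± 0.133 in silenced libraries, and 1.39 ± 0.470 against 0.801 ± 0.257 in KYSE510 (SD, n = 3 each). It was lower in the silenced library of each same-numbered pair, but it did not pass the test in either line (limma adjusted p = 0.267 and 0.646). Averaged over both lines it fell by 0.49 on the log2 scale with the replicate number as a block (limma adjusted p = 0.0295), and without the block this was not called (0.185). All 10 markers of squamous epithelium were at 1 RPKM or more in every library, and their summed level was 1113 to 1791 RPKM in KYSE150 controls, 1368 to 3022 in KYSE150 silenced, 1472 to 2005 in KYSE510 control and 1865 to 3096 in KYSE510 silenced libraries. The summed level of 10 fibroblast markers was 0.0747 to 0.236 RPKM in KYSE150 and 1.79 to 2.64 in KYSE510, with PDGFRA at 0 in all groups. The summed level of 10 endothelial markers was 0.217 to 2.25, with EMCN at 0 in all groups, and that of 9 leukocyte markers 0.230 to 0.887, with MS4A1 at 0 in all groups.

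HES1 had the highest mean level of the 10 genes in the controls of both lines and HEY1 the lowest. In KYSE150 controls the order by mean RPKM, which is per length, was HES1, JAG1, MAML1, JAG2, NOTCH2, DLL1, RBPJ, NOTCH1, NOTCH3 and HEY1. The ranges over 3 libraries overlapped between HES1 and JAG1, MAML1 and JAG2, DLL1 and RBPJ, and NOTCH3 and HEY1, so these neighbours do not differ beyond their spread. In KYSE510 controls the order was HES1, JAG2, NOTCH3, NOTCH1, JAG1, NOTCH2, MAML1, DLL1, RBPJ and HEY1. Each neighbouring pair from NOTCH1 to DLL1 overlapped in that line, and the first 3 genes and the last 2 stood apart from their neighbours. NOTCH3 thus ranked ninth among the 10 in KYSE150 and behind only HES1 and JAG2 in KYSE510.

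**Figure D1:**
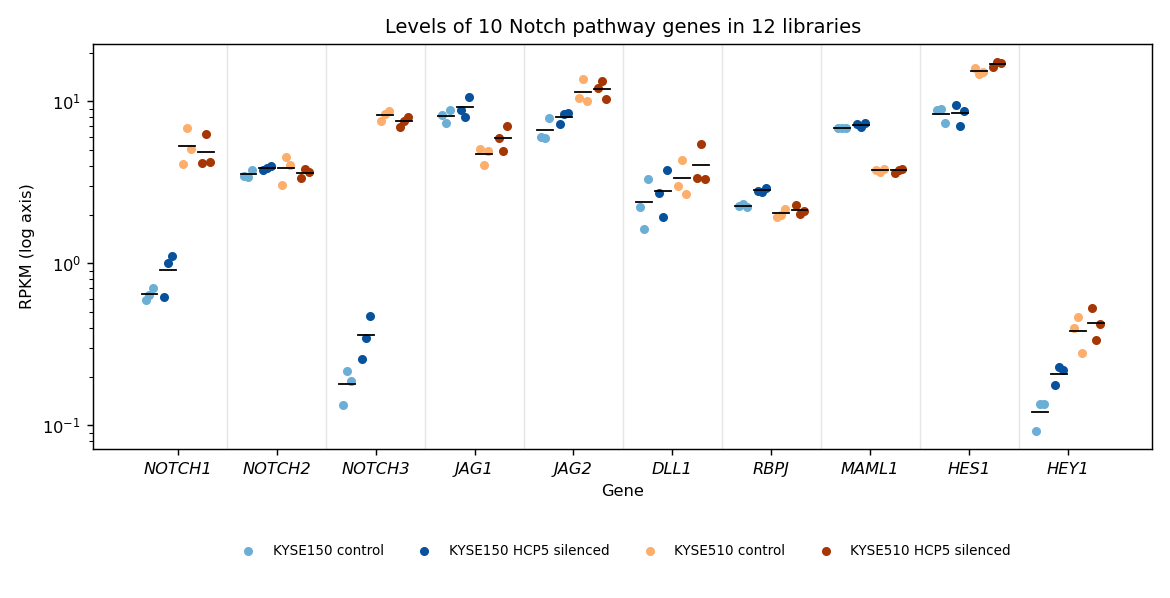
RPKM (log axis) of the 10 Notch pathway genes in each of 12 libraries; points are libraries, coloured by group, and black lines are means of 3. NOTCH1 and NOTCH3 stand lower in all KYSE150 libraries than in all KYSE510 libraries, NOTCH2 overlaps between the lines, and JAG1 and MAML1 stand higher in KYSE150.

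The control lines differed in 6 of the 9 tested genes, against 62% of all genes tested, so this share is near that of the table as a whole. NOTCH3, NOTCH1, HES1 and JAG2 were higher in KYSE510, and JAG1 and MAML1 were higher in KYSE150. Genes called higher in KYSE510 made up 28.3% of all genes tested and genes called lower there 33.7%. The 3 libraries of each line did not overlap for 4 tested genes higher and 3 lower in KYSE510, beside 28.5% and 35.5% of all genes. The median difference, KYSE510 minus KYSE150 on the log2(RPKM + 0.5) scale, was 0.43 over the 9 genes and -0.07 over all genes. With 1 line on each side, a difference belongs to these lines, and it cannot be told apart from any separate handling of the lines. The part of the fibroblast markers, whose sum was also higher in KYSE510 at 2.64 RPKM or less, was not tested. On this scale fold changes of low genes are understated, and in bulk RNA fewer cells expressing a gene and less RNA per cell cannot be told apart.

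Among the receptors, NOTCH3 (chromosome 19, 15159038 to 15200981, minus strand, GRCh38) showed the largest difference of the 9. Its level in KYSE150 controls was 0.133, 0.218 and 0.188 RPKM (25, 42 and 40 reads), and in KYSE510 controls 7.62, 8.32 and 8.73 RPKM (1721, 1975 and 2256 reads). The groups were far apart, with all KYSE510 libraries high. The means were 0.179 ± 0.0431 and 8.22 ± 0.563 RPKM (SD, n = 3), a 45.8-fold ratio, and the log2 difference was 3.68 (SE 0.11, limma adjusted p = 2.5e-10).

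NOTCH1 (chromosome 9, 136494444 to 136545862, minus strand) encodes the receptor best known for promoting keratinocyte differentiation. Its level was 0.591, 0.636 and 0.709 RPKM in KYSE150 controls and 4.10, 6.81 and 5.05 in KYSE510 controls. No KYSE150 value came near the KYSE510 values. NOTCH1 was 8.25-fold higher in KYSE510 by the ratio of means, with a log2 difference of 2.32 (SE 0.20, limma adjusted p = 1.4e-06).

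NOTCH2 (chromosome 1, 119911553 to 120069626, minus strand) was at 3.45, 3.41 and 3.80 RPKM in KYSE150 controls and 3.06, 4.56 and 4.03 in KYSE510 controls. The groups overlapped, with KYSE510 spanning the KYSE150 values. The log2 difference was 0.10 (95% interval -0.16 to 0.36, limma adjusted p = 0.481), so a difference between lines was not shown. Without KYSE510 control replicate 1 it was 0.24 and passed the threshold (limma adjusted p = 0.0388). The table also lists NOTCH2NL, a near-copy of part of NOTCH2, at 1.44 to 2.27 RPKM in KYSE150 and 0.684 to 1.11 in KYSE510 libraries. How reads shared by the copies were assigned is not given in the sources used here, and their part in the NOTCH2 values was not tested.

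The share of each receptor did not overlap between the control lines. NOTCH2 took 81.2% ± 1.36 of the summed RPKM of the 3 receptors in KYSE150 controls, NOTCH1 14.7% ± 0.498 and NOTCH3 4.10% ± 0.967 (SD, n = 3). In KYSE510 controls NOTCH3 took 47.6% ± 4.81, NOTCH1 30.2% ± 3.78 and NOTCH2 22.2% ± 1.31. The summed level of the 3 receptors was 4.38 ± 0.278 RPKM in KYSE150 controls and 17.4 ± 2.48 in KYSE510 controls, with no overlap. NOTCH4, the remaining human receptor, had at most 6 reads in any library.

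**Figure D2:**
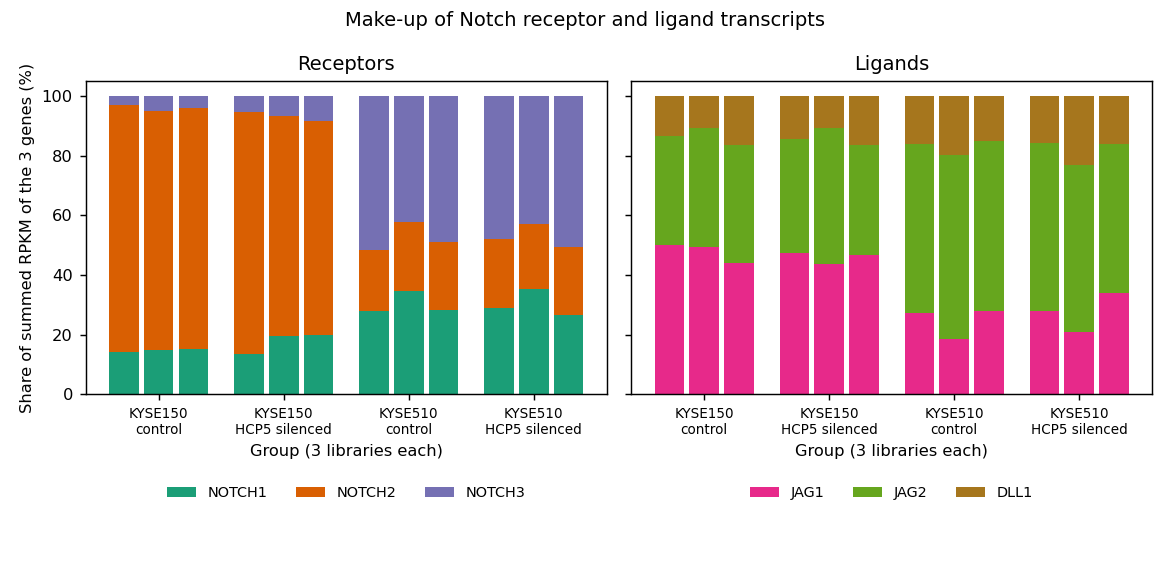
Share (%) of each gene in the summed RPKM of the 3 receptors (left) and of the 3 ligands (right), as stacked bars, 1 bar per library in 4 groups of 3. NOTCH2 fills most of each KYSE150 receptor bar and NOTCH3 is the largest part of each KYSE510 bar; JAG1 has a larger share of the ligand bars in KYSE150 and JAG2 in KYSE510.

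The Jagged ligands differed in opposite directions. JAG1 (chromosome 20, 10637684 to 10674107, minus strand) was at 8.21, 7.40 and 8.81 RPKM in KYSE150 controls and 5.09, 4.06 and 4.95 in KYSE510 controls. Every KYSE150 value was above every KYSE510 value, and the log2 difference was -0.73 (SE 0.14, limma adjusted p = 0.000758). JAG2 (chromosome 14, 105140981 to 105168824, minus strand) was at 5.99, 5.95 and 7.94 RPKM in KYSE150 controls and 10.6, 13.7 and 10.1 in KYSE510 controls. Here every KYSE510 value was the higher, and the log2 difference was 0.74 (SE 0.14, limma adjusted p = 0.000839). JAG2 shares 7.33% of its exon bases with RP11-44N21.4, which lies in the same orientation, and the counting of those reads is uncertain. RP11-44N21.4 had 150, 160 and 241 reads in KYSE150 controls and 341, 548 and 453 in KYSE510 controls. JAG2 itself had 768 to 1153 and 1626 to 2208 reads there. The part of the overlap in the JAG2 difference was not tested.

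DLL1 (chromosome 6, 170282206 to 170306565, minus strand), a Delta-type ligand, was at 2.21, 1.63 and 3.32 RPKM in KYSE150 controls and 3.02, 4.34 and 2.67 in KYSE510 controls. The groups overlapped, and DLL1 had the largest standard error of the 9 tested genes (log2 difference 0.43, SE 0.27, limma adjusted p = 0.189). The interval of this difference ran from -0.17 to 1.03. DLL4, the other Delta ligand that is active in many tissues, had 6 reads or fewer in every library. Of the summed RPKM of the 3 ligands, JAG1 took 47.8% ± 3.37 in KYSE150 and 24.5% ± 5.32 in KYSE510 controls, JAG2 38.6% ± 1.81 and 58.5% ± 2.96, and DLL1 13.6% ± 2.83 and 17.0% ± 2.41 (SD, n = 3). The ligand total was 17.2 ± 2.62 RPKM in KYSE150 and 19.5 ± 2.28 in KYSE510, and these ranges overlapped.

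The nuclear partners were expressed in both lines. MAML1 (chromosome 5, 179732850 to 179796511, plus strand) was at 6.84, 6.88 and 6.83 RPKM in KYSE150 controls and 3.75, 3.67 and 3.84 in KYSE510 controls. These were tight groups without overlap, 1.83-fold higher in KYSE150 by the ratio of means (log2 difference -0.79, SE 0.06, limma adjusted p = 8.8e-07). MAML1 shares 9.88% of its exon bases with LTC4S on the same strand, and LTC4S had 2 to 9 reads. RBPJ (chromosome 4, 26163455 to 26435131, plus strand) was at 2.26, 2.34 and 2.22 RPKM in KYSE150 controls and 1.94, 2.0 and 2.17 in KYSE510 controls. The RBPJ groups did not overlap, KYSE150 being the higher, but the difference did not pass the test (log2 difference -0.13, SE 0.08, limma adjusted p = 0.172).

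Of the target genes, HES1 (chromosome 3, 194136145 to 194138732, plus strand) was at 8.79, 9.02 and 7.35 RPKM in KYSE150 controls and 16.1, 14.8 and 15.2 in KYSE510 controls. All KYSE510 values were above all KYSE150 values, at a 1.83-fold ratio of means (log2 difference 0.84, SE 0.11, limma adjusted p = 4.4e-05). HEY1 (chromosome 8, 79764010 to 79767863, minus strand) was low throughout, with 6, 9 and 10 reads in KYSE150 controls (0.0927, 0.136 and 0.136 RPKM). In KYSE510 controls it was at 0.399, 0.465 and 0.281 RPKM, above every KYSE150 control. With no filter on low values HEY1 was higher in KYSE510 (log2 difference 0.50, SE 0.10, limma adjusted p = 0.00287).

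Beyond these 10 genes, 6 lists of pathway genes written from general knowledge held 76 genes, of which 75 were in the table and 66 were tested. Between control lines 29 were higher and 20 lower in KYSE510, 49 of 66 or 74.2%, beside 62% of all genes, with a median log2 difference of 0.13. Of the other HES and HEY genes and NRARP, 2 were higher and 3 lower of 5 tested, with a median log2 difference of -0.99. NRARP, a target that encodes a feedback inhibitor of the Notch complex, was at 2.97 ± 0.754 RPKM in KYSE150 and 7.86 ± 1.65 in KYSE510 controls (log2 difference 1.27, limma adjusted p = 0.000143). HES4 was also higher in KYSE510 (log2 difference 1.21, limma adjusted p = 0.000769), while HES7 was lower (-1.59, 0.000241). The others called lower were HES2 and HES6, named after their values were seen. HES2 was at 0.766, 0.820 and 1.19 RPKM in KYSE150 controls and 0.0999, 0.271 and 0.222 in KYSE510 controls. HES6 was at 0.980, 0.980 and 1.86 RPKM in KYSE150 controls and 0.204, 0.369 and 0.571 in KYSE510 controls. HEY2 and HEYL, the relatives of HEY1, had 0 reads in all 6 KYSE150 libraries and 8 to 18 reads in each KYSE510 library. These 2 genes were chosen after their values were seen, and both stayed below the filter.

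Of the ligand-like genes outside the set, 3 were higher and 1 lower in KYSE510 of 4 tested. EGFL7, a secreted protein with EGF-like repeats, was higher by 2.14 on the log2 scale (limma adjusted p = 1.5e-06), and DLK2, a Delta-like membrane protein, by 0.87 (0.000325). Of 9 glycosylation genes, 2 were higher and 2 lower. MFNG, a Fringe enzyme that extends fucose on Notch and so alters the choice between Delta and Jagged ligands, was at 3.43, 3.27 and 4.34 RPKM in KYSE150 controls and 0.0957, 0.0650 and 0.131 in KYSE510 controls (log2 difference -2.80, limma adjusted p = 5.3e-08). LFNG, another Fringe enzyme, named after its values were seen, was the higher in KYSE510, at 0.119 ± 0.0399 RPKM in KYSE150 and 0.588 ± 0.102 in KYSE510 controls (log2 difference 0.81, limma adjusted p = 9.1e-05). EOGT, which adds N-acetylglucosamine to EGF repeats, was lower in KYSE510 (-1.13, limma adjusted p = 9.3e-05), and XXYLT1, which adds xylose, was higher (2.03, 9.3e-09).

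Of 9 protease genes, 4 were higher and 2 lower in KYSE510. PSENEN, a subunit of gamma-secretase, was higher by 0.79 (limma adjusted p = 2.1e-05), and FURIN, which cuts the receptor precursor, was lower (-0.86, 0.00973). Of 15 tested trafficking and ubiquitin-ligase genes, 6 were higher and 6 lower. NEURL1, a ligase of the Neuralized family that acts on ligands, was at 3.54 RPKM in KYSE150 and 0.0416 in KYSE510 controls (log2 difference -2.90, limma adjusted p = 6.7e-09). MIB1, the other main ligase of Notch ligands, was higher in KYSE510 (1.29, limma adjusted p = 1.2e-06). Of the Deltex genes, DTX2 and DTX4 differed in opposite directions, by -1.76 and 1.75 (limma adjusted p = 8.2e-09 and 5.0e-08).

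Of 24 tested nuclear cofactors, 12 were higher and 6 lower in KYSE510. MAML2, a paralog of MAML1, was at 0.232, 0.315 and 0.180 RPKM in KYSE150 controls and 2.56, 2.85 and 2.82 in KYSE510 controls. It stood far apart between the lines, in the direction opposite to MAML1 (log2 difference 2.13, limma adjusted p = 1.4e-08). The corepressor NCOR1 (-0.46, limma adjusted p = 0.000242) and CIR1 (-0.90, 2.9e-05), a corepressor that binds RBPJ, were lower in KYSE510. Not all corepressors were lower there: SPEN, named after its values were seen, was the higher in KYSE510. Its level was 9.75, 11.0 and 9.43 RPKM in KYSE150 controls and 16.9, 17.7 and 17.6 in KYSE510 controls.

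**Figure D3:**
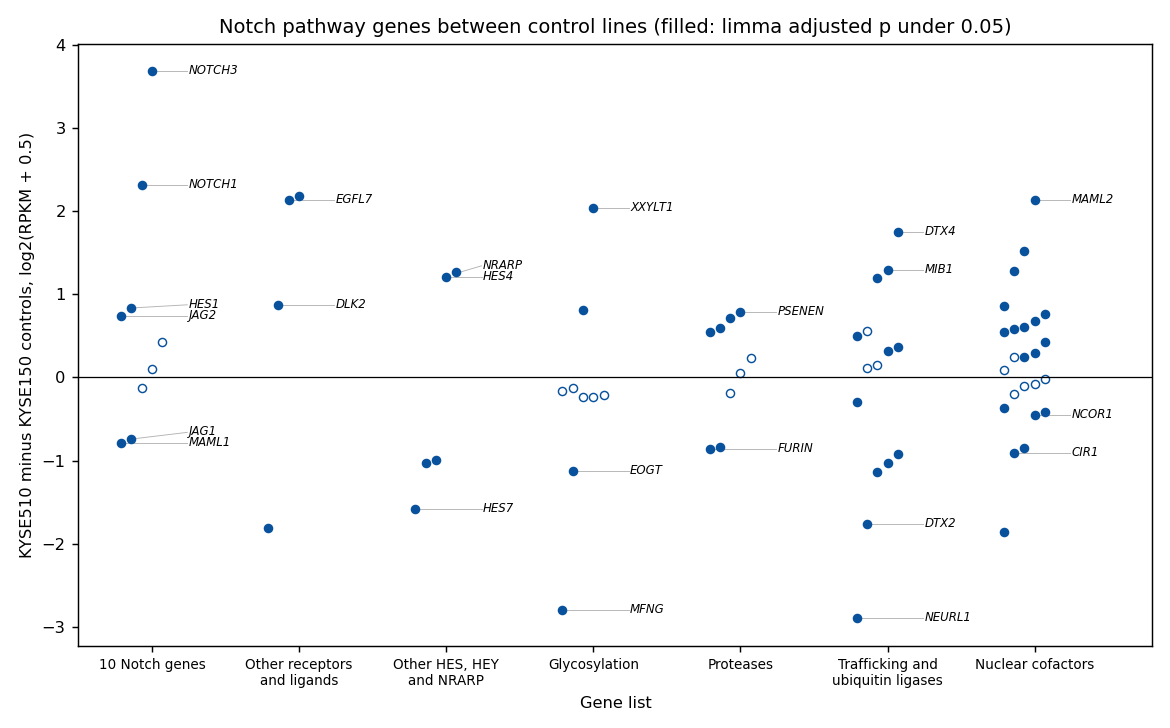
Difference between control lines (KYSE510 minus KYSE150, log2(RPKM + 0.5)) for the 9 tested Notch genes and 66 tested genes of 6 pathway lists; each point is a gene, filled where the limma adjusted p is under 0.05. Every list has filled points on both sides of 0, with NOTCH3 highest of all and NEURL1 lowest.

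The second comparison was between HCP5-silenced and control cells within each line. In KYSE150, 0 of the 9 tested genes passed the threshold, where 0.499% of all genes did, and in KYSE510 again 0 of 9, where 0.0393% of all genes did. At an unadjusted p under 0.05 there were 2 of 9 genes in KYSE150, beside 18.1% of all genes, and 1 of 9 in KYSE510, beside 6.35%, with limma. Limma-voom on the reads recovered from RPKM also called 0 in each line. With the replicate block, which pairs same-numbered libraries, the counts stayed at 0 (6.7% and 0.112% of all genes called). At an unadjusted p under 0.05 the blocked fit had 5 of 9 genes in KYSE150 and 2 of 9 in KYSE510, beside 30.8% and 13.2% of all genes. At backgrounds this low a count of 0 of 9 says little about the set, so the values and intervals of the genes follow. The silencing and line comparisons share the control libraries.

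In KYSE150 the change was positive in 9 of 9 tested genes, with a median of 0.20 on the log2 scale, while the median of all genes was 0.08 and 66.1% of all genes were positive. Centring each library on its median moved the all-gene median from 0.08 to -0.05, and then NOTCH2, HES1 and MAML1 were negative. The silenced library was the higher in 3 of 3 same-numbered pairs for 9 of the 10 genes, and in 2 of 3 for HES1. Of the 9 tested genes this is 8, beside 37.4% of all genes tested that were higher in 3 of 3 pairs. Groups did not overlap for NOTCH3, HEY1, MAML1 and RBPJ, all higher in silenced cells. This is 3 of the 9 tested genes, beside 13.7% of all genes tested that were higher without overlap.

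NOTCH3 in silenced KYSE150 was at 0.255, 0.347 and 0.474 RPKM (63, 92 and 120 reads), each above the highest control at 0.218. The ratio of means was 2.0, the log2 change was 0.33 (SE 0.11, 95% interval 0.09 to 0.57) and the limma adjusted p 0.175, or 0.0505 with the replicate block. The exact 95% Poisson intervals of silenced replicate 1 (0.196 to 0.326 RPKM) and control replicate 2 (0.157 to 0.294) overlapped, which concerns counting error only. NOTCH1 was at 0.624, 1.01 and 1.11 RPKM in silenced cells, where replicate 1 lay within the controls. Its change was 0.29 (SE 0.20, 95% interval -0.14 to 0.72, limma adjusted p = 0.451). NOTCH2, at 3.75, 3.85 and 3.96 RPKM, overlapped the controls at the lower end and changed by 0.11 (95% interval -0.15 to 0.36, limma adjusted p = 0.654).

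The 3 ligands all overlapped between silenced and control KYSE150 cells. JAG1 was at 8.90, 8.02 and 10.7 RPKM in silenced cells (change 0.16, 95% interval -0.14 to 0.47, limma adjusted p = 0.553). JAG2 was at 7.21, 8.36 and 8.53 RPKM (change 0.27, 95% interval -0.05 to 0.58, limma adjusted p = 0.342). DLL1 was at 2.70, 1.95 and 3.75 RPKM and repeated the replicate order of its controls, with replicate 3 high and replicate 2 low in both. Its change of 0.20 had an interval of -0.40 to 0.79, narrowed to 0.04 to 0.35 with the replicate block, and was not called in either fit (limma adjusted p = 0.736 and 0.0989).

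RBPJ was at 2.81, 2.75 and 2.93 RPKM in silenced KYSE150 cells, above all 3 controls, which lay at 2.22 to 2.34. The change was 0.26 (SE 0.08, 95% interval 0.09 to 0.43), with a limma adjusted p of 0.139, or 0.0716 with the replicate block. MAML1, at 7.23, 6.99 and 7.36 RPKM, was also above all its controls, but by little (change 0.07, 95% interval -0.07 to 0.21, limma adjusted p = 0.609). HES1 was at 9.56, 7.07 and 8.78 RPKM, spread on both sides of its controls (change 0.01, 95% interval -0.23 to 0.25, limma adjusted p = 0.993). HEY1 was at 0.177, 0.230 and 0.218 RPKM (15, 21 and 19 reads), above all its controls. Tested without the filter, HEY1 changed by 0.19 (95% interval -0.04 to 0.41, limma adjusted p = 0.535). The greater depth of all silenced KYSE150 libraries moves with these differences, and its part in them was not tested.

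In KYSE510 the tested genes were split, 5 positive and 4 negative, with a median log2 change of 0.06 beside -0.02 for all genes. Groups failed to overlap for HES1 alone, 1 of 9, beside 5.22% of all genes higher without overlap. The silenced library was the higher in 3 of 3 pairs for 3 of 9 genes and in 0 of 3 for 1 of 9, beside 16.0% and 22.5% of all genes. HES1 was at 16.3, 17.4 and 17.3 RPKM in silenced cells, with replicate 1 just above the highest control at 16.1. Its change was 0.14 (95% interval -0.10 to 0.38, limma adjusted p = 0.934). JAG1 was at 5.95, 4.94 and 7.03 RPKM, higher than its same-numbered control in 3 of 3 pairs. Its change was 0.31 (SE 0.14, 95% interval 0.00 to 0.62), with a limma adjusted p of 0.784, or 0.169 with the replicate block.

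DLL1 was at 3.36, 5.49 and 3.31 RPKM in silenced KYSE510 cells, higher in 3 of 3 pairs, with replicate 2 the high value in both groups (change 0.24, 95% interval -0.36 to 0.83, limma adjusted p = 0.953). JAG2 was at 12.1, 13.3 and 10.4 RPKM, within the range of its controls (change 0.06, 95% interval -0.26 to 0.38, limma adjusted p = 0.983). NOTCH3 was at 6.96, 7.61 and 8.06 RPKM, below its same-numbered control in 3 of 3 pairs, though the groups overlapped (change -0.12, 95% interval -0.36 to 0.12, limma adjusted p = 0.945). NOTCH1, at 4.19, 6.26 and 4.23 RPKM, and NOTCH2, at 3.37, 3.82 and 3.65, lay within their controls, with changes of -0.11 and -0.08 (limma adjusted p = 0.975 and 0.967). RBPJ, at 2.29, 2.02 and 2.11 RPKM, overlapped its controls (change 0.06, limma adjusted p = 0.964). MAML1, at 3.60, 3.80 and 3.84 RPKM, changed by 0.00 (95% interval -0.14 to 0.14, limma adjusted p = 1.0), and HEY1, at 0.529, 0.337 and 0.423 RPKM, overlapped its controls too.

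**Figure D4:**
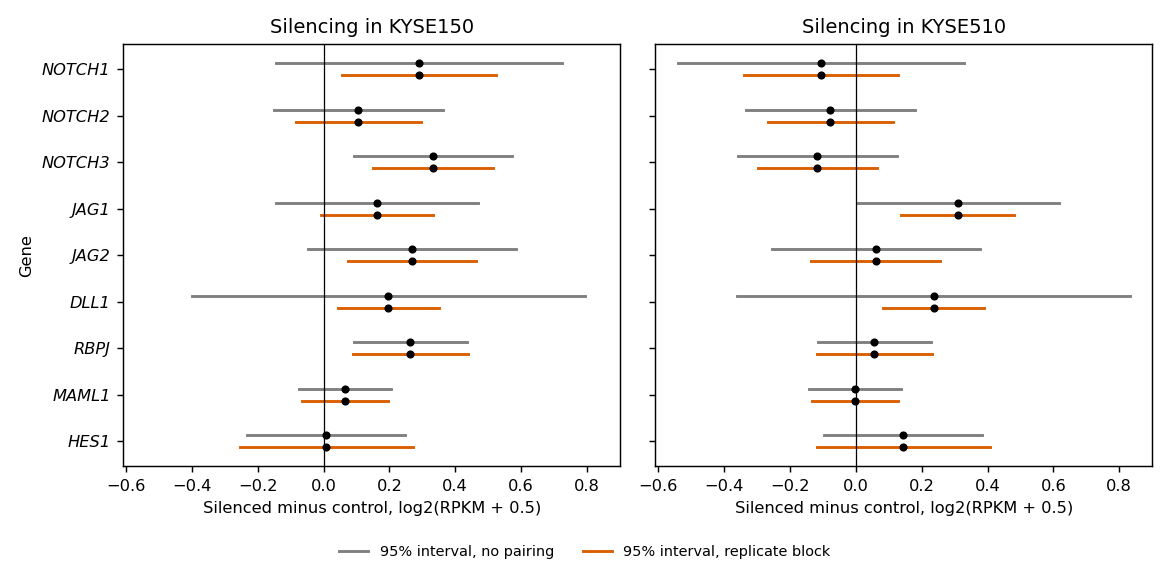
Silenced minus control difference on the log2(RPKM + 0.5) scale for the 9 tested Notch genes in KYSE150 (left) and KYSE510 (right); points are estimates, and lines are 95% intervals of limma without pairing (grey) and with the replicate block (orange). All estimates lie right of 0 in KYSE150, and they lie on both sides in KYSE510, with JAG1 farthest right; no gene passed the adjusted threshold.

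Averaged over both lines 0 of 9 genes passed the threshold (0.539% of all genes did, and 2.74% with the replicate block). JAG1 changed by 0.24 (95% interval 0.02 to 0.45, limma adjusted p = 0.390) and RBPJ by 0.16 (95% interval 0.04 to 0.28, limma adjusted p = 0.284), the 2 genes of 9 with an unadjusted p under 0.05, beside 11.5% of all genes. The blocked fit had 4 of 9, beside 20.3% of all genes. With the replicate block the lowest adjusted p values were those of DLL1 (0.0612) and JAG1 (0.0636, limma), short of the threshold. The change did not pass the test of a difference between lines for any of the 9, and 0% of all genes passed it in limma, with 2181 genes (12.2%) at an unadjusted p under 0.05. The largest such difference in size was that of NOTCH3, -0.45 (KYSE510 minus KYSE150, 95% interval -0.79 to -0.11, limma adjusted p = 0.394). NOTCH3 was the 1 gene of the 9 with an unadjusted p under 0.05 there. Of the summed receptor RPKM, NOTCH2 took 75.5% ± 4.98 and NOTCH3 6.90% ± 1.53 in silenced KYSE150, and NOTCH3 47.2% ± 3.83 and NOTCH2 22.6% ± 0.861 in silenced KYSE510 (SD, n = 3).

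Among the 66 other pathway genes, 0 passed the threshold in either line. With the replicate block 4 were called in KYSE150, all higher in silenced cells, which is 6.06% of 66 beside 5.04% of all genes called higher. They were DTX2, NEURL1B, NRARP and TLE2. NRARP was at 2.62, 2.45 and 3.83 RPKM in controls and 3.87, 5.31 and 5.26 in silenced cells, with no overlap but with control replicate 3 close to silenced replicate 1. It rose by 0.62 with the block (limma adjusted p = 0.0356) and was not called without it (0.152). In KYSE510 NRARP was at 5.97, 8.99 and 8.62 RPKM in controls and 6.24, 8.43 and 7.54 in silenced cells, which overlapped (change -0.07, limma adjusted p = 0.988). TLE2, a Groucho-type corepressor, rose in KYSE150 from 1.07 ± 0.275 to 1.81 ± 0.178 RPKM (SD, n = 3), by 0.57 (limma adjusted p = 0.0311 with the block, 0.0770 without).

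DTX2 rose by 0.36 and NEURL1B, a Neuralized-like ligase, by 0.52 in KYSE150 with the block (limma adjusted p = 0.0280 and 0.0341), and neither was called without it (0.0743 and 0.366). Averaged over lines, FURIN, NEURL1B and TLE2 rose with the block, by 0.38, 0.42 and 0.37 (limma adjusted p = 0.0241, 0.0286 and 0.0449), and none of these 3 was called without it (2.06% of all genes were called higher in that fit). In KYSE510 the count of pathway genes was 0 in both fits. Leaving out KYSE150 control replicate 3 raised the KYSE150 count without the block from 0 to 6 pathway genes. The count over all genes rose with it, from 89 of 17823 tested to 1291 of 17652, and the count for the 10 Notch genes stayed at 0. Without KYSE150 silenced replicate 3 the count over all genes was 15.

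Within lines, some of the 10 genes varied together over the 12 libraries. With the mean of each line subtracted, Pearson's r on the log2 scale was 0.79 between NOTCH1 and NOTCH2, 0.78 between NOTCH1 and JAG2, 0.74 between DLL1 and JAG2 and 0.74 between NOTCH3 and MAML1. For HES1 the values were smaller in size and of both signs: JAG2 (-0.38), NOTCH1 (-0.36), NOTCH2 (-0.36), MAML1 (0.37) and JAG1 (0.35). These are descriptions over 12 libraries that share 4 groups, replicate numbers and library scaling. Over all tested genes with a mean of at least 1 RPKM, the genes closest to NOTCH1 were ARL6IP1 (0.96), DNMT3B (0.96) and GNPTAB (0.96), and those closest to JAG1 were KLF7 (0.97), GRK5 (0.97) and KRT6A (0.96). The closest to HES1 were SDAD1 (0.99), RP11-793H13.10 (0.92) and SPTY2D1 (0.87). For HEY1, which rests on 6 to 41 reads, the highest values were lower, with TUBG1 (0.84), STIL (0.82) and RNY3P15 (0.81).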

How the data were processed

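Total RNA (TRIzol) was made into Illumina libraries, per the labels' protocols. The submitters' processing notes name HISAT2, DESeq and the build GRCh38; versions, the annotation, strand use and filters are not given in the sources used here. The deposited table gives RPKM per gene and library, with exon lengths, per the file headers. Multiplied by exon length, 100% of values were whole multiples of 1 step per library (tolerance 0.01), so reads were recovered; RPKM is thus scaled to reads in genes, and a shift in abundant genes moves every value of a library. Counting intervals are exact 95% Poisson intervals and cover counting error only.

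Groups and replicate numbers came from the labels. Tests covered genes that reached 0.5 RPKM in 3 or more libraries, on log2(RPKM + 0.5) with limma 3.58.1 in R 4.3.3 (4 group means over 12 libraries, 8 residual degrees of freedom, eBayes with trend; two-sided, Benjamini-Hochberg over all 17823 genes, threshold 0.05). The script was tested on simulated data. Deviations from group means of same-numbered control and silenced libraries correlated at 0.147 to 0.415 in 6 of 6 pairs, and those of other-numbered libraries at -0.385 to 0.184. The titles' numbers were thus taken to pair libraries within a line, and an alternative fit used the number as a block (4 residual degrees of freedom). Such deviations sum to 0 within a group, so positive same-numbered values push the others below 0 on average. The pairing also rests on the same data as the blocked fit. KYSE150 control replicate 2 correlated more with silenced replicate 1 (0.184) than with silenced replicate 2 (0.147). Named pathway genes are those called in a silencing comparison and, between control lines, the 2 largest differences each way per list with a mean of at least 1 RPKM; 2 of these are not reported here. The members and lists were chosen with earlier results of these data known.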

Additional observations from a re-analysis of the deposited data

Results flagged for a closer look

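The change of NOTCH3 with silencing differed in sign between the lines. The silenced library was the higher in 3 of 3 same-numbered pairs in KYSE150 and the lower in 3 of 3 in KYSE510, and the difference of the changes, KYSE510 minus KYSE150, was -0.45 on the log2(RPKM + 0.5) scale (SE 0.16). It did not pass the test over all genes (limma adjusted p = 0.394; in the blocked fit, 0.117). The KYSE150 values rest on 25 to 120 reads per library and the KYSE510 values on 1510 to 2256. NOTCH3 was flagged because all its pairs rose in 1 line and fell in the other, so that pattern is not separate support. Of all genes tested, 37.4% were higher in 3 of 3 pairs in KYSE150 and 22.5% in 0 of 3 in KYSE510. The share with both is not given here.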

How the results depend on the processing

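Alternatives were pseudocounts of 0.1 and 1, no filter, a stricter filter (1 RPKM in 6 libraries), centring on library medians, no trend, only the 6 libraries compared, a replicate block, limma-voom on recovered reads, and each library left out. The count of the 10 genes called was 0 in every silencing comparison under each of these, the replicate block included. Counts over all genes ran from 0 of 15971 (only the 6 libraries compared) to 1291 of 17652 (without control replicate 3) in KYSE150. In KYSE510 they ran from 2 to 44, the latter of 36815 genes without the filter. At such backgrounds a count of 0 says little about the set. Between control lines the count of the 10 genes was 6 or 7, where HEY1 (no filter) or NOTCH2 (without KYSE510 control replicate 1) was added. The block changed no call of the 10 genes; its changes to pathway genes and HCP5 stand beside those results, and the contrast of control lines lies between blocks. None of the changes of sign concerned a called gene. Under centring the KYSE150 changes of NOTCH2, HES1 and MAML1 were -0.024, -0.12 and -0.064, the KYSE510 change of MAML1 0.024, the means over lines of NOTCH2 and MAML1 -0.037 and -0.020, and the difference between lines of MAML1 0.088. With each library left out in turn, the KYSE150 change ran from -0.0036 to 0.42 for DLL1 and from -0.080 to 0.13 for HES1. The KYSE510 change ran from -0.28 to 0.072 for NOTCH1, -0.22 to 0.035 for NOTCH2, -0.020 to 0.19 for JAG2 and -0.018 to 0.022 for MAML1. The mean over lines of NOTCH2 ran from -0.057 to 0.071, the difference between lines of DLL1 from -0.18 to 0.24, and the control-line difference of NOTCH2 from -0.012 to 0.24. The cause of these changes was not tested. The fewest reads lie behind HEY1 (6 to 41 per library) and NOTCH3 in KYSE150 (25 to 120).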
